A study of Mus musculus with 16 samples.

Results

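Complement is a protein cascade of innate immunity, and 9 of its genes were followed in mouse fallopian tubes: C3, C1QA, C1QB, C1S, CFB, CFI, CD55, CLU and SERPING1, as the array table spells them. All rows of the table with those symbols were taken, which gave 9 probes for 8 of the 9 genes among 25697 probes and 18138 gene symbols in all. C1s had 2 probes, and CLU had no row under its symbol and was not analysed here. The 9 probes passed the filter on dim probes, as did 16848 probes of the table.

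The 16 samples came from immature female C57BL/6N mice of 3.5 to 5 weeks that had received no hormones. Pieces of whole tubes were incubated in G-MOPS, a medium for handling oocytes and embryos. The 4 groups of 4 samples were control for 20 min, progesterone for 20 min, control for 2 h and progesterone for 2 h, with 100 nmol/L progesterone in the treated dishes and 0.01% ethanol in all dishes, controls included. Every sample pooled 6 tubes, and a control and a progesterone sample with the same code (27n, 26n, 12n and 22ob at 20 min, 6d, 19n, 30o and 15o at 2 h) formed a pair. By the methods, both arms took a tube from every mouse, and a dish held the tubes of only a few animals; the sources used here do not say how both hold. Pools of whole tubes mix ciliated and secretory epithelium, stroma, smooth muscle and leukocytes, and in such bulk RNA fewer cells of a type and less RNA per cell cannot be told apart. Between 13222 and 14267 probes per array had a detection p-value under 0.05, and the precision of each value is limited by the 4 samples of a group.

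Complement can be started by the C1 complex, in which C1q binds a surface and its partner proteases C1r and C1s cut the next components. The alternative pathway keeps itself going through C3 and factor B, and both routes meet at C3, whose fragments coat the target. Host cells are spared by regulators: C1 inhibitor (Serping1) blocks C1r and C1s, CD55 takes the C3-cutting enzymes apart, and factor I cleaves the active fragments. Macrophages are the usual source of C1q, while C3 and the proteases and inhibitors of the cascade are made by the liver and also locally by epithelium and fibroblasts.

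Upstream sequence was at hand in the RefSeq table (GRCm38.p6) for 4 of the 9 genes, C3, C1qb, C1s1 (the current name of C1s) and Cd55. The windows of 250 bases before the transcription start of C1qb, C1s1 and C3 are printed because they hold a hexamer bound by the progesterone receptor and related steroid receptors (TGTTCT, or AGAACA on the other strand) or a motif of the C/EBP transcription factors (TTGCNNAA, or TTNNGCAA on the other strand). Capitals mark these motifs, all 3 genes lie on the minus strand and the letters run 5′ to 3′ along the gene.
C1qb, chr4:136886201-136886450, minus strand: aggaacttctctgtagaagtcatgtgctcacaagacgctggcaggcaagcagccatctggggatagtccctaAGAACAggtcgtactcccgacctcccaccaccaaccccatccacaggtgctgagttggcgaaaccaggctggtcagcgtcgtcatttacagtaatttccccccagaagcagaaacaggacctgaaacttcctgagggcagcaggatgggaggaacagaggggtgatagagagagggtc
C1s1, chr6:124542360-124542609, minus strand: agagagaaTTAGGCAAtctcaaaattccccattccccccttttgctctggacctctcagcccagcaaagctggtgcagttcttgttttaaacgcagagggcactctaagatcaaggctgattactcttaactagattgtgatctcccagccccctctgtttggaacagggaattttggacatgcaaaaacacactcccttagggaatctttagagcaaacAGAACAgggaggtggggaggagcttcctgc
C3, chr17:57228137-57228386, minus strand: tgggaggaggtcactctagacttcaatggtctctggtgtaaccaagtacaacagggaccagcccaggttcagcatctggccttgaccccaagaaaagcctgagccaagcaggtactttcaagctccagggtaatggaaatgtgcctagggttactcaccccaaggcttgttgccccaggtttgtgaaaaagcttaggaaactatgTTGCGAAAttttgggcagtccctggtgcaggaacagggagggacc
The hexamer began 178 bases before the start in C1qb and 30 bases before it in C1s1, on the strand opposite to the gene in both. The table lists another start for C1s1, whose window held the hexamer 68 bases before that start and no C/EBP letters. The hexamer was present in 16.1% of 32851 windows of this length over the genome. The C/EBP letters began 45 bases before the start of C3 and 242 bases before that of C1s1, and 9.56% of windows held them. The window of Cd55 held neither, and none of the 4 genes held TTCNNNGAA (the interferon GAS letters, in 7.02% of windows) or TATAAA (in 12.4%).

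C3, the central component (probe ILMN_2759484), was detected on 16 of 16 arrays. Its log2 quantile-normalized signal in pairs 27n, 26n, 12n and 22ob was 12.75, 12.36, 12.66 and 12.82 in the controls of 20 min and 12.55, 12.49, 12.41 and 12.95 with progesterone. In pairs 6d, 19n, 30o and 15o it was 12.44, 12.31, 12.25 and 12.90 in the controls of 2 h and 12.40, 12.38, 12.12 and 12.61 with progesterone. The 4 groups overlapped, with means of 12.65 ± 0.20, 12.60 ± 0.24, 12.47 ± 0.29 and 12.38 ± 0.20 (SD, n = 4) in the order of the opening. Pairs 22ob and 15o held the highest values of their time points.

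C1qa and C1qb encode chains of C1q. C1qb (ILMN_2619620, chromosome 4) read 9.80, 9.89, 9.34 and 9.37 in the controls of 20 min and 9.64, 9.59, 9.11 and 9.57 with progesterone, in the same order of pairs. At 2 h it read 9.65, 9.43, 9.46 and 8.76 in the controls and 9.94, 9.15, 8.97 and 9.51 with progesterone. The control of pair 15o lay lowest of all 16 arrays and the progesterone sample of pair 6d highest, and the groups overlapped. The group means were 9.60 ± 0.29, 9.48 ± 0.25, 9.33 ± 0.39 and 9.39 ± 0.43 (SD, n = 4). C1qa (ILMN_2776431, chromosome 4) ran from 7.35 in the control of pair 15o to 8.15 in the progesterone sample of pair 26n, with group means of 7.83 ± 0.20, 7.86 ± 0.22, 7.72 ± 0.32 and 7.75 ± 0.24 (SD, n = 4).

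C1s, the protease that C1 uses to cut C4 and C2, was read by ILMN_1257046 (probe 1, the brighter) and ILMN_2667269 (probe 2, chromosome 6). Probe 1 had group means of 7.66 ± 0.28, 7.58 ± 0.17, 7.39 ± 0.30 and 7.32 ± 0.32 (SD, n = 4), and probe 2 of 7.40 ± 0.22, 7.51 ± 0.17, 7.29 ± 0.33 and 7.18 ± 0.32. The probes were detected on 16 and 15 arrays. RefSeq lists a near copy, C1s2, and whether these probes read it was not tested.

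Cfb, the protease precursor of the alternative pathway (ILMN_1230853, chromosome 17), had group means of 7.35 ± 0.15, 7.39 ± 0.17, 7.53 ± 0.24 and 7.50 ± 0.12 (SD, n = 4) and ran from 7.14 to 7.83 over the 16 arrays. Its groups overlapped.

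Factor I, Cfi (ILMN_2631704, chromosome 3), read 10.45, 10.77, 11.32 and 11.06 in the controls of 20 min and 10.65, 10.80, 11.20 and 11.05 with progesterone. At 2 h it read 10.44, 10.55, 10.78 and 11.12 in the controls and 10.30, 11.31, 11.00 and 10.90 with progesterone. The 4 pairs of 20 min kept their order in both arms, 27n lowest and 12n highest, which is not so for the pairs of 2 h. Group means were 10.90 ± 0.38, 10.92 ± 0.24, 10.72 ± 0.30 and 10.88 ± 0.42 (SD, n = 4).

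Cd55, the membrane regulator (ILMN_1248714, chromosome 1), read 9.44, 9.39, 9.79 and 9.43 in the controls of 20 min and 9.17, 9.65, 9.64 and 9.81 with progesterone. At 2 h it read 9.37, 9.61, 10.01 and 10.03 in the controls and 9.48, 9.89, 9.91 and 9.83 with progesterone. Pair 6d lay lowest at 2 h in both arms, and the groups of both times overlapped. Group means were 9.51 ± 0.19, 9.57 ± 0.28, 9.75 ± 0.32 and 9.78 ± 0.20 (SD, n = 4). RefSeq lists a near copy, Daf2, and whether the probe reads it was not tested.

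Serping1, the C1 inhibitor (ILMN_2913166, chromosome 2), read 11.43, 11.43, 10.81 and 10.93 in the controls of 20 min and 11.24, 11.52, 11.00 and 11.04 with progesterone. At 2 h it read 11.05, 10.34, 10.58 and 10.49 in the controls and 10.93, 10.31, 10.56 and 10.88 with progesterone. The progesterone samples of 2 h lay below those of 20 min without overlap, while among the controls pair 6d reached into the range of 20 min. Group means were 11.15 ± 0.33, 11.20 ± 0.24, 10.62 ± 0.30 and 10.67 ± 0.29 (SD, n = 4).

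**Figure D1:**
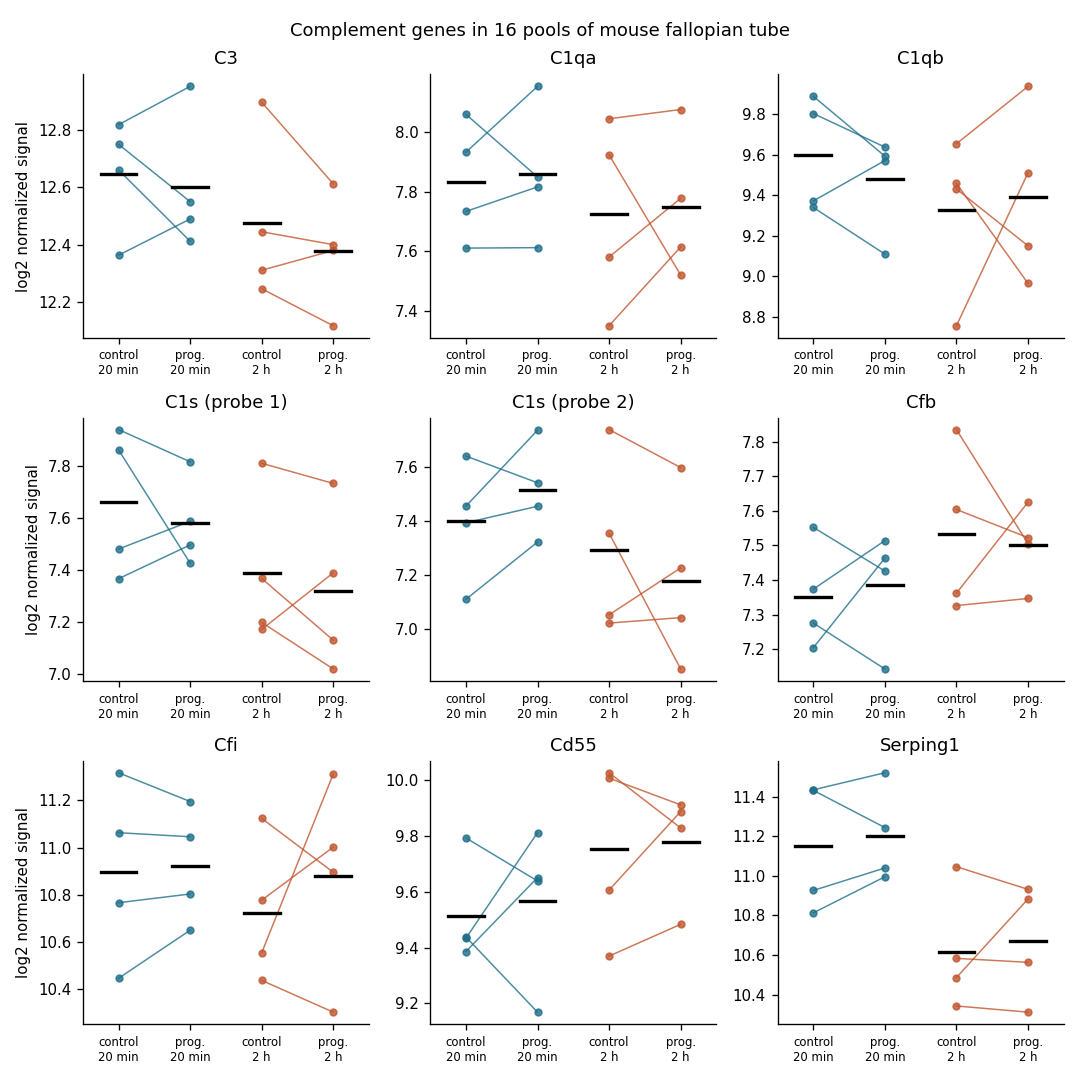
Log2 quantile-normalized signal of the 9 complement probes (vertical axes, each panel with its own range) in the 4 groups of 4 samples. Points are samples, lines join the control and progesterone (prog.) sample of a pair, and black bars are group means; the lines run up and down in every panel, and Serping1 sits lower at 2 h than at 20 min, at 10.62 and 10.67 against 11.15 and 11.20.

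The comparison within pairs asked whether progesterone changed these genes. It called none of the 9 probes at 20 min or at 2 h (limma with the pair as block; a probe counted as called when its adjusted p did not exceed 0.20). At 20 min the log2 fold changes ran from -0.12 ± 0.08 (SE, 4 pairs) for C1qb to 0.11 ± 0.07 for probe 2 of C1s, and the 95% confidence intervals of the 9 probes reached no lower than -0.31 and no higher than 0.29. Over the pairs left out in turn, C1qb ran from -0.23 to -0.07 and probe 2 of C1s from 0.06 to 0.18. Without normalization, which shifted the median of all probes by 0.13, all 9 estimates at 20 min lay above 0, that of C1qb at 0.07, that of C3 at 0.09 and that of Serping1 at 0.21. At 2 h they ran from -0.11 ± 0.11 for probe 2 of C1s to 0.16 ± 0.15 for Cfi, with intervals between -0.36 and 0.50. Both ends of this range turned without pair 19n, with 0.02 for probe 2 of C1s and -0.05 for Cfi, and widened without pair 15o, to -0.21 and 0.28. For C3 the estimate was -0.05 ± 0.08 at 20 min and -0.10 ± 0.08 at 2 h, lower in 2 and in 3 of 4 pairs. Leaving out each pair in turn gave -0.11 to 0.02 at 20 min and -0.15 to -0.04 at 2 h. For Serping1 it was 0.05 ± 0.07 and 0.06 ± 0.09, higher in 3 and in 1 of 4 pairs. With each pair left out in turn, the estimate for Serping1 ran from 0.004 to 0.127 at 20 min. At 2 h it ran from -0.055, without pair 15o, to 0.115.

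The lowest adjusted p among the 9 probes was 0.954 at 20 min, and it was 0.9997 for each of them at 2 h. Over all 16848 probes the same rule called 0% at 20 min and 0.00594% at 2 h, so a count of 0 among 9 probes is near the background. At an unadjusted level of 0.05, limma called 0 of the 9 probes at either time, where the background was 5.03% at 20 min and 2.59% at 2 h. None of the 9 probes had the same sign in all 4 pairs at either time, beside 12.8% of all probes at 20 min and 10.4% at 2 h. Paired SAM, the test of the study's methods, called 0 of 9 at a q of at most 20%, with backgrounds of 0% and 0.0475%. Between 20 min and 2 h the effect of progesterone shifted by amounts that ran from -0.23 ± 0.14 for probe 2 of C1s to 0.19 ± 0.23 for C1qb. The value of C1qb was -0.04 without pair 15o and 0.38 without pair 30o, and that of C1s probe 2 was -0.10 without pair 19n and -0.57 with normexp. The shift was called for none of the 9 probes (lowest adjusted p = 0.999 from limma), where the background was 0.00594%, or 4.15% at the unadjusted level of 0.05, which 0 of the 9 passed.

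**Figure D2:**
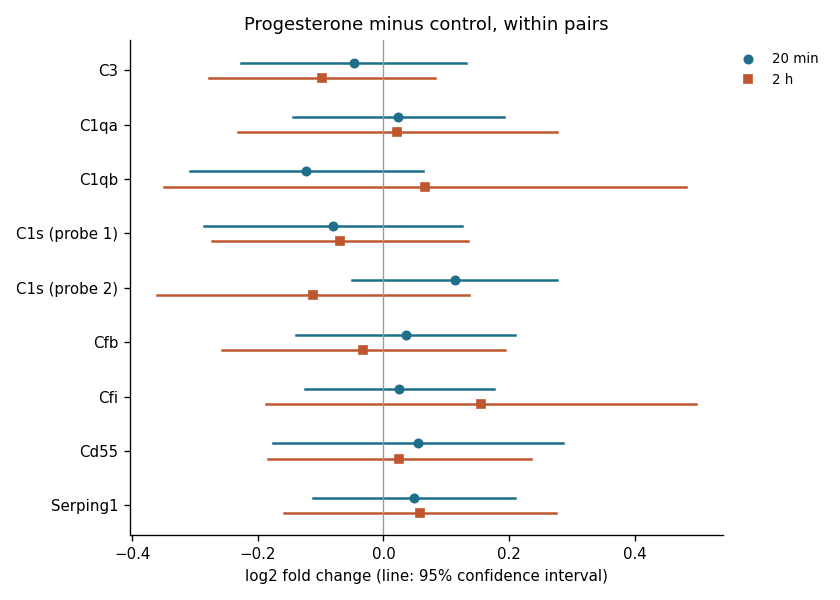
Log2 fold change of progesterone against control within pairs (horizontal axis) for the 9 complement probes at 20 min (circles) and 2 h (squares), with 95% confidence intervals from limma over 4 pairs. Every interval spans 0, and the widest are those of C1qb and Cfi at 2 h.

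The differences within pairs of 2 h were uneven. C1qb was higher with progesterone by 0.75 in pair 15o and by 0.28 in pair 6d, and it fell by 0.28 in pair 19n and by 0.49 in pair 30o. The SD of its 4 pair differences, 0.56, exceeded that of 98.7% of all probes, and the SD for Cfi, 0.45, that of 97.5%, beside a median of 0.15. Cfi moved the other way, by 0.76 in pair 19n and -0.23 in pair 15o. A score of 12 stromal fibroblast markers (log2 signals centred on each marker's average over the arrays, then averaged over the markers) differed between progesterone and control by 0.82 in pair 15o, -0.42 in pair 19n, -0.26 in pair 30o and -0.07 in pair 6d, where it did not share the sign of C1qb. A score of smooth muscle markers differed by more, 1.46 in pair 15o and -1.05 in pair 19n, -0.38 in pair 30o and -0.09 in pair 6d. The part of the tissue's makeup in these differences was not tested.

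Time in the dish was compared between the pairs of 20 min and 2 h, which are different pools. Serping1 was lower at 2 h by 0.53 ± 0.16 (SE) on the log2 scale among the progesterone samples, a fold of 0.69 (adjusted p = 0.0484 from limma, called at 0.05). Among the controls it was lower by 0.54 ± 0.18, which did not pass (adjusted p = 0.0987). The difference between both estimates was 0.01 ± 0.12, with an interval of -0.26 to 0.28, and pools of the same code are not independent between the arms. None of the other 8 probes was called. Serping1 was thus 1 of 9 probes among the progesterone samples, where 14.98% of all probes were called, and 0 of 9 among the controls, where 11.3% were. It was also the only 1 of the 9 that passed an unadjusted level of 0.05, in both arms, where 28.8% and 25.6% of all probes did, so these shares are near or below the background. Its lack of overlap, lower at 2 h, was shared by 10.04% of all probes in the progesterone samples, and none of the 9 was lower without overlap among the controls, where the background was 8.54%.

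The call for Serping1 lay close to the threshold. Leaving out the 20 min sample of pair 27n, 26n, 12n or 22ob, or the 2 h sample of pair 19n or 30o, ended it, with adjusted p-values from limma of 0.106, 0.118, 0.0512, 0.0658, 0.0970 and 0.127. The estimate stayed between -0.61 and -0.41 over the 8 samples left out. Normexp, a looser filter and no filter also ended it, with adjusted p-values from limma of 0.0619, 0.0675 and 0.0715. Among the controls, leaving out pair 6d gave a call, with -0.68 and an adjusted p = 0.0291. So did no normalization (-0.78, adjusted p = 0.00847 from limma) and median centring (-0.66, adjusted p = 0.0158). A comparison of the means of each pair over both arms, chosen after the data were seen, gave -0.53 ± 0.16 (4 pairs per time, adjusted p = 0.0497 from limma), where 19.3% of all probes were called and Serping1 was 1 of 9.

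Markers of other cell types moved over the same time. Of 12 stromal fibroblast markers, 3 were called lower in the progesterone samples (Dcn, Col1a1 and Pdgfrb) and 1 in the controls (Dcn), where 7.79% and 5.33% of all probes were called lower, with medians of -0.61 and -0.50 on the log2 scale beside -0.01 over all probes. Their summed signal ran from 16409 to 27423 in the controls of 20 min and from 17704 to 26153 with progesterone, and at 2 h from 8527 to 19922 and from 10622 to 21025, with 11 or 12 of the 12 detected on every array. Of 8 smooth muscle markers none was called (medians -0.64 and -0.61, 7 of 8 below 0 in both arms), and their summed signal ran from 42329 to 63368 over the arrays of 20 min and from 13185 to 61710 over those of 2 h. Of 9 secretory epithelium markers 6 were called higher in the progesterone samples and 5 in the controls, where 7.19% and 6.01% of all probes were. The medians of this list were 0.48 and 0.51, with 7 of 9 above 0 in both arms, and Krt18 rose by 0.97 and 0.87. Krt8, Krt18, Lcn2, Cdh1 and Muc1 were called in both arms. Msln, also on the list of mesothelium markers, was called in the progesterone samples only. Ovgp1 (-0.12 and -0.08), Pax8 (0.195 and 0.424) and Spp1 (-0.01 and -0.04, detected on 3 arrays) were not called in either arm. The medians of these 3 lists kept their sign without normalization, with median centring and with normexp, but the counts moved. In the progesterone samples 12 stromal markers were called lower without normalization and 11 with median centring, beside 37.2% and 24.8% of all probes. Of the smooth muscle markers 5 and 3 were called lower there, and 1 with normexp, beside 7.48% of all probes. In the controls 0 and 2 secretory markers were called higher without normalization and with median centring, where 1.70% and 3.26% were. Of 16 macrophage and leukocyte markers Cd14 and Cd68 rose and Cx3cr1 fell in both arms, and the other 13 were not called. Of all probes 14.98% were called in the progesterone samples and 11.3% in the controls. The medians of this list were -0.01 and -0.08. The probe of Cx3cr1 was detected on only 9 of the 16 arrays. Without normalization Cd68 was not called in the controls (adjusted p = 0.174 from limma). The part of the stromal markers' shift in the values of Serping1 was not tested.

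The other members had estimates over time, in controls and then progesterone samples, of -0.17 and -0.22 for C3, -0.11 and -0.11 for C1qa, -0.28 and -0.09 for C1qb and -0.28 and -0.26 for probe 1 of C1s. They were -0.11 and -0.33 for probe 2 of C1s, 0.18 and 0.11 for Cfb, -0.18 and -0.05 for Cfi and 0.24 and 0.21 for Cd55. Without normalization, which shifted the median of all probes by -0.17 and -0.23, the estimates turned to -0.01 and -0.15 for Cfb and to -0.06 and -0.20 for Cd55. With quantile normalization none of these was called, and the largest confidence limits were 0.59 for Cd55 and -0.72 for C1qb, both in the controls. Without it, C1qb and probe 1 of C1s were called lower in the controls (-0.58, adjusted p = 0.0381, and -0.47, adjusted p = 0.0493, from limma). There 1821 of all probes were called, and C1qa stood at -0.35, not called. Without the 2 h sample of pair 6d in the progesterone arm, both probes of C1s were called lower (-0.40, adjusted p = 0.0416, and -0.47, adjusted p = 0.0221, from limma). In that setting 17.1% of all probes were called, and 9.02% were called lower.

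**Figure D3:**
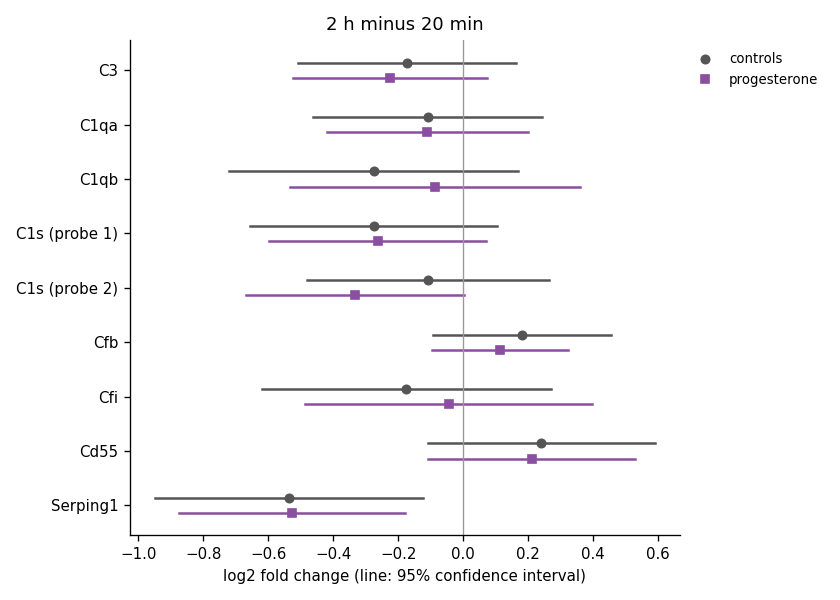
Log2 fold change of 2 h against 20 min (horizontal axis) for the 9 complement probes in the controls (circles) and the progesterone samples (squares), with 95% confidence intervals from limma, 4 against 4 samples. The intervals of Serping1, around -0.54 and -0.53, are the ones that stay below 0.

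Pools differed from each other in these genes more than in most. The SD of the 4 pair means was 0.28 for Serping1 and 0.31 for Cfi at 20 min, where the median over all probes was 0.08, and 0.30 for C1qb and 0.29 for Cfi at 2 h, where it was 0.10. Over the 9 probes this SD exceeded that of 72.1% to 97.8% of all probes at 20 min and of 71.6% to 95.8% at 2 h. Pair 6d held the highest pair means of C1qa, C1qb, C1s and Serping1 at 2 h and the lowest of Cfb, Cfi and Cd55, and pair 12n at 20 min the lowest of C1qa, C1qb, C1s and Serping1 and the highest of Cfi and Cd55.

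With the group means taken out, the members fell into 2 sets that moved against each other over the 16 arrays. C1qa, C1qb, C1s and Serping1 went together, with Pearson's r between 0.62 and 0.85 for their probes, and Cfb, Cfi and Cd55 went together, with r between 0.59 and 0.77. Between the sets r ran from -0.88 (Cd55 with probe 2 of C1s) to -0.50 (Cfb with C1qa). With the members of both sets C3 had r from -0.32 to 0.38. The 16 arrays are 8 pairs of pools and share 1 normalization, in which a rise of some probes lowers the rank of others, so these values describe the arrays and were not tested.

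The stromal score divided the members in the same way. It had an r of 0.93 with C1qb, 0.86 with C1qa, 0.79 and 0.85 with the C1s probes and 0.75 with Serping1, and of -0.86 with Cfi, -0.78 with Cfb and -0.71 with Cd55 (16 arrays). Spearman's rho for C1qb and Cfi was 0.93 and -0.89. Without the 2 arrays farthest from the median score r was 0.91 for C1qb, 0.78 for Serping1, -0.87 for Cfi and -0.59 for Cd55. Within the arrays of 20 min and of 2 h it was 0.95 and 0.92 for C1qb, 0.85 and 0.70 for Serping1 and -0.81 and -0.90 for Cfi, over 8 arrays each. Over the 8 differences within pairs r was 0.83 for C1qb, 0.46 for C1qa, 0.75 and 0.68 for the C1s probes and 0.675 for Serping1. It was -0.69 for Cfb, -0.70 for Cfi and -0.41 for Cd55.

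Over the 16 arrays, scores of some other cell types divided the members likewise. For C1qb r was 0.88 with the macrophage and leukocyte score, 0.90 with the smooth muscle score and -0.80 with the secretory epithelium score. Serping1 had 0.82, 0.67 and -0.63 with the same scores, and Cfb -0.76, -0.72 and 0.79. Over the 8 differences within pairs the secretory score had r of -0.69 with C1qb, -0.18 with C1qa, -0.84 and -0.18 with the C1s probes and -0.82 with Serping1. It had 0.68 with Cfb, 0.31 with Cfi and -0.03 with Cd55. In the same order the macrophage and leukocyte score had 0.82, 0.16, 0.74, 0.33, 0.68, -0.86, -0.32 and -0.35. The smooth muscle score had 0.78, 0.64, 0.66, 0.69, 0.73, -0.50, -0.81 and -0.46. Over the 16 arrays these 4 scores, the stromal one included, gave C3 an r from -0.35 with the stromal score to 0.43 with the secretory score. Without the 2 farthest arrays these were -0.08 and 0.21. The endothelium score had an r of 0.81 with Serping1, and the only 1 of 7 liver plasma protein genes that passed the filter had -0.83. The ciliated cell score had r between -0.27 and 0.29 with the 9 probes. The ovary and fat scores rest on dim probes (0 to 3 of 5 and 0 to 2 of 3 genes detected per array), so their r, from -0.49 (C3 with the ovary score) to 0.29, tell little. For C3 r was larger with the mesothelium score (0.64) and the blood score (-0.57, over 3 genes). The stromal score, over 12 genes, ran from -1.11 in the 2 h control of pair 15o to 0.69 in the 20 min control of pair 26n.

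**Figure D4:**
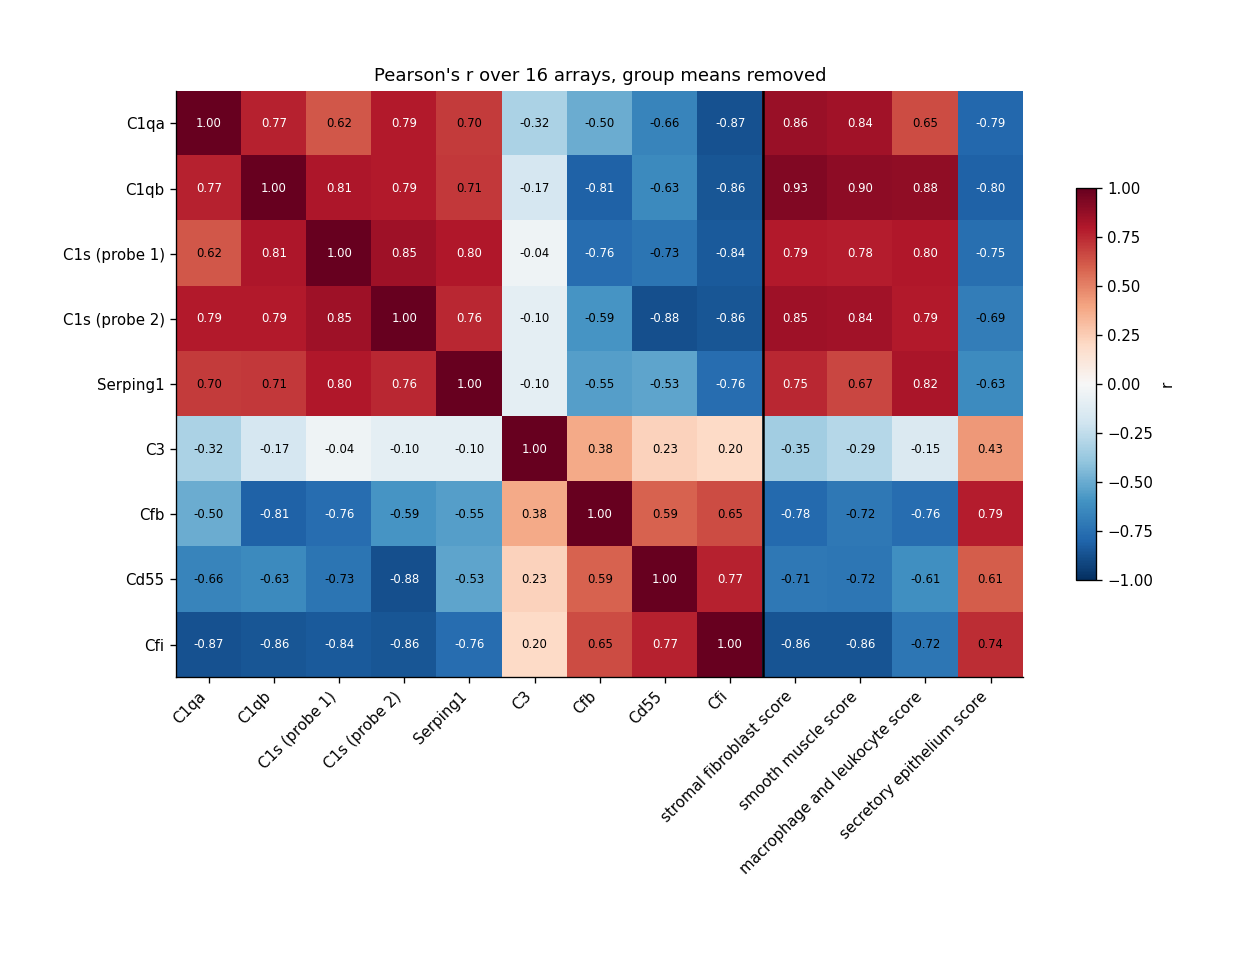
Pearson's r, coloured from -1 to 1, between the complement probes (rows) and the same probes and 4 marker scores (columns), over 16 arrays with the group means removed. C1qa, C1qb, C1s and Serping1 form a block of positive r with the stromal, smooth muscle and macrophage scores, and Cfb, Cd55 and Cfi form the opposite block, while C3 is pale.

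**Figure D5:**
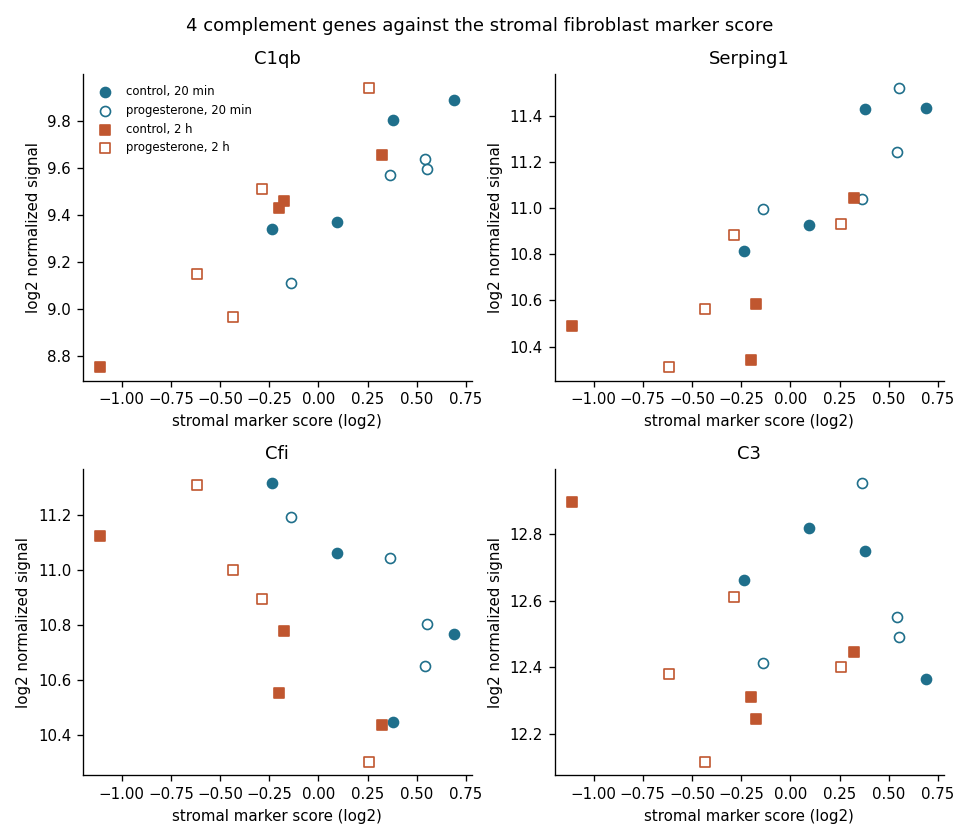
Log2 quantile-normalized signal of C1qb, Serping1, Cfi and C3 (vertical axes) against the score of 12 stromal fibroblast markers (horizontal axis, log2) on the 16 arrays, circles for 20 min and squares for 2 h, filled for controls and open for progesterone. C1qb and Serping1 rise with the score, Cfi falls and C3 shows no such order; with group means removed r is 0.93, 0.75, -0.86 and -0.35.

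The genes most like each member were looked up among all 16848 probes by the same r, so high values follow from the choice. Serping1 was closest to Cxx1c (r = 0.96), Adamts1 (0.94) and Gypc (0.92). C1qb was closest to Ehbp1l1 (0.96), Trpv2 (0.95) and Col6a1 (0.95), and C1qa to Tro, Bin1 and Stk17b (each 0.94). C1s was closest to Eif4e3 (0.95), Slc2a4 (0.94) and Mdk (0.93). Cfi was closest to Creb3l4 (0.95), C130060K24Rik (0.95) and Noxo1 (0.94), Cd55 to BC005682 (0.95), Atg5 (0.91) and Mad2l1 (0.90), and Cfb to Cyb5r1 (0.92), Dnajc16 (0.89) and the predicted gene LOC100048858 (0.87). C3 was closest to Wwc1 (0.89), Zcchc6 (0.88) and Raet1b (0.88).

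Of 45 other complement genes with a row in the table, 25 had a probe that passed the filter. C1qc, the third chain of C1q, lies beside C1qa and C1qb on chromosome 4 with 0 protein-coding genes between, and its r was 0.90 with C1qb and 0.79 with C1qa over 16 arrays. Progesterone changed 0 of the 25 by the same rule at either time, with medians of 0.01 and 0.07 on the log2 scale beside 0.00 over all probes, and 0 of their 28 probes passed the unadjusted level of 0.05, where 5.03% and 2.59% of all probes did. The same sign in all 4 pairs was seen in 3 of the 28 at 20 min and 6 at 2 h, beside 12.8% and 10.4% of all probes. For the difference between both effects 1 of the 28, that of C8b, passed the unadjusted level, beside 4.15%, and 0 were called.

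Of these genes the 5 with the smallest p at 20 min were C8a (0.12 ± 0.06), C8b (-0.12 ± 0.06) and C8g (-0.10 ± 0.07), which encode chains of the C8 of the membrane attack complex, C4b (-0.12 ± 0.06), a component cut by C1s, and Susd4 (0.12 ± 0.07). At 2 h they were C2 (0.26 ± 0.12), which works with C4b and lies beside Cfb on chromosome 17, Cd59b (0.16 ± 0.07), an inhibitor of the membrane attack complex, C8a (0.14 ± 0.07), C4b (-0.18 ± 0.10) and Crry (0.16 ± 0.09), a rodent regulator of C3 cleavage. Their adjusted p-values from limma were 0.948 to 0.963 at 20 min and 0.9997 at 2 h. The probe of C8a was detected on only 3 of the 16 arrays.

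Over time 1 of the 28 probes was called in the controls and 2 in the progesterone samples, below the background of 11.3% and 14.98% of all probes. Cd59a, an inhibitor of the membrane attack complex, read 11.65 to 11.71 in the controls of 20 min and 11.10 to 11.43 in those of 2 h. With progesterone it read 11.56 to 11.70 and 11.20 to 11.44. It fell by 0.36 ± 0.08 (SE) in the controls (adjusted p = 0.0166 from limma) and by 0.29 ± 0.07 in the progesterone samples (adjusted p = 0.0195). C8b rose by 0.42 ± 0.07 in the progesterone samples (adjusted p = 0.00403 from limma), from 7.11 ± 0.08 to 7.53 ± 0.10 (SD, n = 4). In the controls its estimate was 0.21 ± 0.06 (adjusted p = 0.0702). With normexp Cd59a was not called in either arm (-0.38 and -0.30, adjusted p = 0.0854 and 0.126 from limma). C8b was then called in both, with 0.52 in the controls and 1.10 with progesterone (adjusted p = 0.0391 and 0.00126 from limma). There 10.4% and 14.6% of all probes were called. Without normalization C8b was not called in the progesterone samples (0.19, adjusted p = 0.204 from limma). The probe of C8b was dim, with a mean of 7.33 and detection p-values up to 0.029 in the progesterone samples of 20 min.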

How the data were processed

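The members and the gene lists were chosen with earlier results of these data known. RNA was hybridised to Illumina MouseRef-8 v2 BeadChips, 1 array per sample (16 arrays); a chip carries several arrays, and which samples shared one is not given in the sources used here. The authors deposited each probe's signal intensity, summarized from beads by GenomeStudio before normalization, and a detection p-value per probe and array; 0 columns were left without a sample. Here the intensities were quantile-normalized and converted to log2 with limma 3.58.1 in R 4.3.3. The filter kept a probe if 13 or more arrays gave it a detection p-value below 0.5. Fits used lmFit and eBayes with Benjamini-Hochberg adjustment over all kept probes. Progesterone was compared within pairs (block), with calls up to an adjusted p of 0.20, after the study's q-value, and time between unpaired groups, with calls up to 0.05. Paired SAM used all 16 sign changes. Arrays carry no depth. The p-values of the progesterone comparisons measure the spread of the differences within pairs, and those of the time comparisons the spread between pools. The brightest probe stood for a gene. Genes named were the members, other complement genes called in a comparison or among the 5 smallest p-values of a progesterone comparison, and the 3 probes most like each member. Also named were C1qc, near copies of members and some of the markers called over time. Alternatives changed the background correction, normalization, filter, array weights, block and samples. The scripts were tested on simulated data. Pairs rest on the study's paired design and the shared codes; deviations from group means correlated at 0.45 on average for the same code at 20 min (0.35 to 0.55) and at 0.29 at 2 h (0.0005 to 0.65), against -0.15 and -0.10 for different codes. Figures came from Python 3.11.15 with matplotlib 3.10.9.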

Additional observations from a re-analysis of the deposited data

Results flagged for a closer look

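C1qb in the progesterone sample of 20 min from pair 12n read 9.11 on the log2 scale, far from the 9.57 to 9.64 of the other 3 samples of its group. Cd55 in the control sample of 20 min from the same pair read 9.79, far from the 9.39 to 9.44 of the other 3. The stromal fibroblast score of pair 12n was -0.24 in the control and -0.14 with progesterone, the lowest of the 8 arrays of 20 min, and its part in either value was not tested. Of 36 groups of 4 samples examined (9 probes in 4 groups), 2 held such a sample, where chance gives about 1.8, or 1 in 20.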

How the results depend on the processing

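For progesterone at 20 min, at 2 h and for the difference of its effects, 0 of the 9 probes were called under every alternative run: no normalization, median centring, normexp by control probes, a stricter, a looser and no filter, array weights, each pair left out, paired SAM (20 min and 2 h) and no replicate block. Of all probes these runs called 0% at 20 min, at most 0.0712% at 2 h and at most 0.184% for the difference of effects. Both maxima came without pair 15o. A count of 0 among 9 is thus near the background in every run. Over these alternatives 5 estimates of single probes at 20 min moved by more than 2 SE, 4 of them upward without normalization, 0 at 2 h and 1 for the difference of effects (C1s probe 2 with normexp). The fit without the replicate block, which ignores the pairing, called 0 of the 9. For time in the controls, where 0 were called, 3 were called without normalization and 1 with median centring, where 10.8% and 12.5% of all probes were; over the samples left out the count ran from 0 to 1 (6.91% to 11.8% of all probes), and the pair means of both arms gave 1 (19.3%). For time in the progesterone samples, where 1 was called, the count was 4 without normalization and 2 with median centring, where 39.5% and 29.3% of all probes were called, and 0 with normexp (14.6%), with the looser filter (9.72%) and with no filter (9.18%); over the samples left out it ran from 0 to 3 (10.1% to 17.1%). Serping1 stayed lower at 2 h in all 16 alternatives of the controls (called in 4, -0.78 to -0.44) and all 15 of the progesterone samples (called in 6, -0.86 to -0.41). Without normalization the median of all probes shifted by -0.17 and -0.23 over time, and the estimates of Cd55 and Cfb turned below 0, not called. The calls over time were 898 lower of 1911 in the controls and 1312 lower of 2524 in the progesterone samples, against 1534 of 1821 and 6268 of 6654 without normalization and 1548 of 2098 and 4179 of 4931 with median centring. Dim probes are limited by signal over background: with normexp the C1s estimates in the progesterone samples grew to -0.68 and -0.91, not called.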
